A study of Homo sapiens with 6 samples.

Results

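Glypicans and syndecans are the main families of heparan sulfate proteoglycans at the cell surface. All 6 human glypican genes (*GPC1* to *GPC6*) and all 4 syndecan genes (*SDC1* to *SDC4*) were taken by name from the deposited table, giving 10 of 62703 listed genes. Of these, 7 held enough reads to be tested (3 glypicans and 4 syndecans). *GPC2*, *GPC3* and *GPC5* did not pass the filter and are given as levels, with tests outside the reported fit beside them. PANC-1 is an epithelial cell line from a human pancreatic ductal carcinoma. Poly(A) RNA was sequenced from 3 samples of unedited DKK1-SE+/+ cells and 3 samples of DKK1-SE-/- cells. In the latter, CRISPR/Cas9 had removed both copies of e1, a component enhancer of the super-enhancer named for *DKK1*. Only a single homozygous clone was obtained, so the DKK1-SE-/- replicates are samples of 1 clone. A difference between the groups is therefore a difference of that clone from the unedited line, and the deletion cannot be told apart from other properties of the clone. The labels call the samples biological replicates without saying whether they were separate cultures, so p-values measure only the spread between these samples. Depth, as the sum of expected counts, ranged from 16475810 to 21822314 per DKK1-SE+/+ sample and from 17359835 to 20098086 per DKK1-SE-/- sample.

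Heparan sulfate proteoglycans consist of a core protein carrying long sulfated sugar chains, and these chains bind growth factors, chemokines and matrix proteins and present them to their receptors. Syndecans cross the plasma membrane and reach the cytoskeleton through short cytoplasmic tails, whereas glypicans are held on the outer face of the membrane by a lipid anchor. In pancreatic cancer, *GPC1* is known for high levels in tumor cells.

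*DKK1*, the secreted Wnt antagonist for which the enhancer is named, served as a check of the genotype labels. Its level, in TPM (transcript abundance scaled to gene length and library), was 229.2, 245.8 and 198.5 across DKK1-SE+/+ replicates 1 to 3, against 66.8, 79.8 and 82.7 across DKK1-SE-/- replicates 1 to 3. All 3 DKK1-SE-/- samples were lower than every DKK1-SE+/+ sample. The log2 fold change of DKK1-SE-/- over DKK1-SE+/+ was -1.45 (SE 0.112) with a Benjamini-Hochberg adjusted p of 6.16e-06 over all tested genes (edgeR's quasi-likelihood F test). The deleted element gives no row in the table, so *DKK1* reads the genotype only indirectly.

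A gene was called when this adjusted p was under 0.05. Many genes were called between these groups, namely 5972 of 15179 tested genes (39.3%), with 19.8% higher and 19.5% lower in DKK1-SE-/- cells. Against this background, all 4 syndecans were called higher in DKK1-SE-/- cells, while of the 3 tested glypicans 1 was called lower and 2 were not called. The count of 4 syndecans was 1 without DKK1-SE+/+ replicate 1, 2 without DKK1-SE+/+ replicate 2 or 3 or DKK1-SE-/- replicate 2, 3 after a correction for GC content (an offset per library) and 1 with limma on log2(TPM + 1). The median log2 fold change was 0.59 over the syndecans and 0.12 over the tested glypicans, beside 0.03 over all tested genes, and after GC correction these were 0.44, -0.30 and 0.01. The TPM of the groups did not overlap for 3 of 4 syndecans and for 1 of 3 tested glypicans, compared with 44.2% of all tested genes. A stricter limit, an unadjusted p under 0.05 together with a log2 fold change of 1.2 or more in size, was met by *SDC2* and *GPC6*, and by 8.66% of all tested genes. In a bulk sample, fewer cells of a type and less RNA per cell cannot be told apart.

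**Figure D1:**
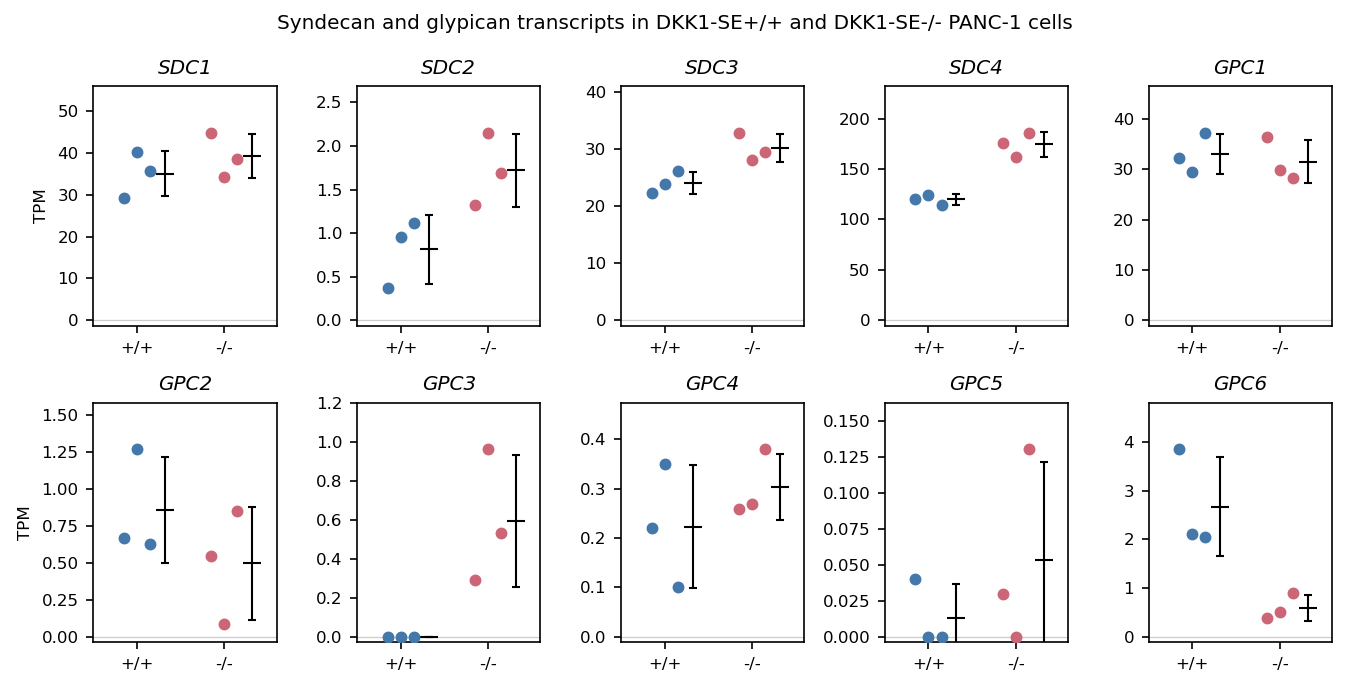
TPM of each syndecan and glypican gene (vertical axes, starting near 0 and scaled per gene) in the 3 DKK1-SE+/+ samples (blue) and the 3 DKK1-SE-/- samples (red), with mean and SD in black. The groups separate for *SDC2*, *SDC3*, *SDC4*, *GPC3* and *GPC6*, and *SDC4* reaches 161.5 to 185.9 TPM in DKK1-SE-/- cells.

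*SDC4*, a syndecan found at focal adhesions, was the most abundant of the 10 genes. The gene (ENSG00000124145) lies on the minus strand of chromosome 20, from 45325288 to 45348424 (GENCODE version 44, hg38). *SDC4* TPM was 120.6, 124.5 and 114.4 across DKK1-SE+/+ replicates 1 to 3, against 176.0, 161.5 and 185.9 across DKK1-SE-/- replicates 1 to 3. Every DKK1-SE-/- sample was above every DKK1-SE+/+ sample, and the gap between the groups was larger than the spread within either. Fitted expression was 1.62-fold higher in DKK1-SE-/- cells (log2 fold change 0.69, SE 0.0974, Benjamini-Hochberg adjusted p = 0.000341 in edgeR's quasi-likelihood F test). In the 16 refits with other settings or with a sample left out, its log2 fold change lay between 0.54 and 0.72 and the gene was called each time.

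*SDC3*, a syndecan best known from the nervous system, was also well expressed. Its TPM was 22.4, 23.9 and 26.2 across DKK1-SE+/+ replicates 1 to 3, against 32.9, 28.1 and 29.6 across DKK1-SE-/- replicates 1 to 3. The groups did not overlap, although the highest DKK1-SE+/+ sample and the lowest DKK1-SE-/- sample were close. The log2 fold change was 0.48 (SE 0.116), 1.4-fold, with a Benjamini-Hochberg adjusted p of 0.00723 in edgeR's quasi-likelihood F test. Without DKK1-SE+/+ replicate 1 the same edgeR test gave a Benjamini-Hochberg adjusted p of 0.0623 with a log2 fold change of 0.41, and limma on log2(TPM + 1) gave 0.0791 with a log2 fold change of 0.31, so neither kept the call. The GC correction kept the call but lowered the log2 fold change to 0.26.

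The promoters of *SDC4* and *SDC3* are shown because these abundant syndecans were higher together. Sequences came from RefSeq (GRCh38.p14), in which 8 of the 10 genes were matched, all but *GPC3* and *SDC2*. Each is the 250 bases before the transcription start, read 5′ to 3′ on the strand of the gene, and capitals mark matches on either strand to the motifs searched. These were the AP1 motif TGANTCA, the GC box GGGCGG, the TATA box TATAAA and the TCF motif CTTTGAT, and no matches of different motifs overlapped in the windows shown, while GC boxes may share a base. The *SDC4* window is chr20:45348425-45348674 on the minus strand and the *SDC3* window is chr1:30908759-30909008 on the minus strand.
SDC4: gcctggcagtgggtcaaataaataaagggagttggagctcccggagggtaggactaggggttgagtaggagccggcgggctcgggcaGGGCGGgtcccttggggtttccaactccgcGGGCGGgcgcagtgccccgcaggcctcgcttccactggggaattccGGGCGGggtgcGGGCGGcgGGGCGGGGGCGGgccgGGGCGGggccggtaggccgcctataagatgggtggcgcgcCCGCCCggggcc
SDC3: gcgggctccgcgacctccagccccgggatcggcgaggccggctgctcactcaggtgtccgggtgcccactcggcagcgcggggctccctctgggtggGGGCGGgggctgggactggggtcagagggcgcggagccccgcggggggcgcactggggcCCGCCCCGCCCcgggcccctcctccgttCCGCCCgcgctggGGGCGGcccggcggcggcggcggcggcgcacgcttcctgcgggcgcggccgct
In the *SDC4* window the GC box occurred 8 times, and in the *SDC3* window 5 times, whereas 42.6% of all 35116 promoters in the table held it at least once. *SDC1* was also abundant and called higher, and each of its windows, not shown, held 1 GC box. Both windows shown were rich in G and C, at 73.6% for *SDC4* and 83.6% for *SDC3*, beside a median of 58.0% over all promoters. The windows of *GPC1* and *GPC4*, not called in the reported fit, held 84.0% and 76.0%, and those of *SDC1* 75.2% and 66.4%. Neither the *SDC4* nor the *SDC3* window matched the AP1, TATA box or TCF letters, which 6.57%, 10.7% and 2.26% of all promoters held. A match describes the letters only, and no binding was measured.

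*SDC1*, the main syndecan of epithelia, differed less clearly. Its TPM was 29.3, 40.2 and 35.7 across DKK1-SE+/+ replicates 1 to 3, against 44.8, 34.3 and 38.5 across DKK1-SE-/- replicates 1 to 3. On this scale the groups overlapped, with DKK1-SE-/- replicates 2 and 3 below DKK1-SE+/+ replicate 2. On the scale of the test, counts normalized to library size (CPM), the values were 65.5, 73.2 and 78.6 in DKK1-SE+/+ cells and 112.8, 88.5 and 84.3 in DKK1-SE-/- cells. These did not overlap, and DKK1-SE-/- replicate 1 was the highest. The log2 fold change was 0.39 (SE 0.132) with a Benjamini-Hochberg adjusted p of 0.0358 in edgeR's quasi-likelihood F test. The call held in 5 of 16 refits. The same edgeR test lost it without DKK1-SE+/+ replicate 1, 2 or 3 (Benjamini-Hochberg adjusted p = 0.202, 0.108 and 0.0553) and without DKK1-SE-/- replicate 1 or 2 (0.118 and 0.054). The log2 fold changes there were 0.29, 0.39 and 0.45, and 0.23 and 0.44. Scaling by library size alone gave an edgeR adjusted p of 0.0602 (log2 fold change 0.32), and the replicate number as a block gave 0.079 (0.38). With the correction for GC content the log2 fold change of *SDC1* was 0.10 and the edgeR adjusted p was 0.342, and with limma on log2(TPM + 1) they were 0.16 and 0.453.

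*SDC2*, a syndecan typical of mesenchymal cells, was expressed at a low level. The expected counts were 16, 14 and 13 across DKK1-SE+/+ replicates 1 to 3, against 14, 44 and 41 across DKK1-SE-/- replicates 1 to 3. DKK1-SE-/- replicates 2 and 3 were high, while replicate 1 had a count like those of DKK1-SE+/+ cells. In TPM, the values were 0.37, 0.96 and 1.12 in DKK1-SE+/+ cells and 1.32, 2.15 and 1.69 in DKK1-SE-/- cells, without overlap. The log2 fold change was 1.29 (SE 0.414) with a Benjamini-Hochberg adjusted p of 0.0294 in edgeR's quasi-likelihood F test. The call held in 9 of 16 refits. The same edgeR test lost it without DKK1-SE+/+ replicate 1, 2 or 3 (Benjamini-Hochberg adjusted p = 0.0907, 0.0661 and 0.0826) and without DKK1-SE-/- replicate 2 or 3 (0.115 and 0.0842). The log2 fold changes there were 1.21, 1.37 and 1.23, and 1.09 and 1.06. On log2(TPM + 1) limma gave a log2 fold change of 0.60 for *SDC2* and an adjusted p of 0.0554.

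*GPC1* made up most of the glypican message. Its TPM was 32.3, 29.5 and 37.2 across DKK1-SE+/+ replicates 1 to 3, against 36.3, 29.8 and 28.3 across DKK1-SE-/- replicates 1 to 3. The groups overlapped, and the highest and the lowest sample of each were at similar levels. No call was made (log2 fold change 0.12, SE 0.156, Benjamini-Hochberg adjusted p = 0.581 in edgeR's quasi-likelihood F test). The log2 fold change was -0.07 without DKK1-SE-/- replicate 1. With the correction for GC content it was -0.30 and the edgeR adjusted p was 0.00751, a call in the lower direction. The transcript of *GPC1* had a GC content of 66.7%, and over 15167 tested genes the log2 fold change rose with GC content (Spearman rho 0.404, taken over genes, none of them an independent replicate of another). The antisense gene *GPC1-AS1* overlaps *GPC1*, held at most 19 counts in any sample and was not called (log2 fold change 0.50). The library kit keeps strand, but whether the counting used it is not given in the sources used here, so reads of this pair cannot be told apart.

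*GPC6* (ENSG00000183098), which spans 93226807 to 94408020 of chromosome 13 (plus strand), was the glypican that fell. The expected counts were 254.2, 185 and 205 across DKK1-SE+/+ replicates 1 to 3, against 30, 60 and 58 across DKK1-SE-/- replicates 1 to 3. In TPM these were 3.85, 2.11 and 2.06 against 0.39, 0.51 and 0.9. All 3 DKK1-SE-/- samples were lower than every DKK1-SE+/+ sample on both scales, and DKK1-SE-/- replicate 1 was the lowest. Expression was 4.02-fold lower in DKK1-SE-/- cells (log2 fold change -2.01, SE 0.206, Benjamini-Hochberg adjusted p = 4.53e-05 in edgeR's quasi-likelihood F test). *GPC6* was called lower in all 16 refits, with log2 fold changes from -2.17 to -1.18, the latter from limma on log2(TPM + 1), a scale that understates changes of low genes.

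The promoter of *GPC6* is shown in the same way, because this gene moved against the syndecans. The window is chr13:93226557-93226806 on the plus strand.
GPC6: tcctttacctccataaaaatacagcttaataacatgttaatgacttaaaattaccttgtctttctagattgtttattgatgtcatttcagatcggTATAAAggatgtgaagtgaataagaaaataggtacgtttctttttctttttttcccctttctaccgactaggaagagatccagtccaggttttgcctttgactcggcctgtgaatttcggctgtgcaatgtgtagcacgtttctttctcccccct
It was poor in G and C, at 37.6% with 6 CpG dinucleotides, while the median promoter held 11. Of all promoters in the table, 8.9% had a lower GC content. The capitals mark the TATA box letters, 155 bases before the start. No GC box was found, whereas the windows of the 7 other genes searched each held at least 1, with 4 in that of *GPC1*. The AP1 and TCF letters were absent from all of the member windows searched.

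The remaining glypicans were near the limit of detection. *GPC4* had 18, 21 and 7 counts across DKK1-SE+/+ replicates 1 to 3, against 18, 22 and 25 across DKK1-SE-/- replicates 1 to 3. The groups overlapped and no call was made (log2 fold change 0.60, SE 0.433, Benjamini-Hochberg adjusted p = 0.298 in edgeR's quasi-likelihood F test). For *GPC4* the log2 fold change was 0.25 without DKK1-SE+/+ replicate 3, 1.02 without DKK1-SE+/+ replicate 2 and 0.10 with limma on log2(TPM + 1). *GPC3*, an oncofetal glypican, had no count in any DKK1-SE+/+ sample and 4, 10 and 9 counts across DKK1-SE-/- replicates 1 to 3. It was thus seen in DKK1-SE-/- samples only, at a level too low for the filter. Against a floor of 3 counts per DKK1-SE+/+ library, which covers counting error only, its mean normalized count in DKK1-SE-/- cells was 2.69 times the floor. This is not a lower bound on the fold, because the error of the DKK1-SE-/- counts was left out. A two-sided exact permutation test of *GPC3* TPM gave p = 0.1, the smallest p that 3 against 3 samples allow. Without the filter, edgeR's quasi-likelihood F test gave a Benjamini-Hochberg adjusted p of 0.000679. *GPC3* entered that fit only through its DKK1-SE-/- counts and was compared with a group without counts. That p therefore only restates the separation seen, and no conclusion is drawn from it. *GPC2* had 9, 13 and 9 counts in DKK1-SE+/+ cells and 7, 3 and 9 in DKK1-SE-/- cells, and *GPC5* had at most 4 counts in any sample. No difference was found in either, with a Benjamini-Hochberg adjusted p of 0.589 for both in the same edgeR test without the filter.

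Levels can be set in order within each genotype by TPM. In DKK1-SE+/+ cells *SDC4* (119.9 ± 5.08, SD, n = 3) led, followed by *SDC1* (35.1 ± 5.46) and *GPC1* (33 ± 3.87), whose samples overlapped. *SDC3* (24.2 ± 1.88) and *GPC6* (2.67 ± 1.02) came next, and the other genes averaged under 1 TPM. In DKK1-SE-/- cells *SDC4* (174.4 ± 12.3) again led. *SDC1* (39.2 ± 5.29), *GPC1* (31.5 ± 4.23) and *SDC3* (30.2 ± 2.43) followed, each overlapping the next. *SDC2* (1.72 ± 0.416) stood above *GPC6* (0.6 ± 0.267) there, the opposite of their order in DKK1-SE+/+ cells. Summed syndecan TPM was 172.8, 189.6 and 177.4 across DKK1-SE+/+ replicates 1 to 3, against 254.9, 226.0 and 255.7 across DKK1-SE-/- replicates 1 to 3. The syndecan sums did not overlap between the groups. Summed glypican TPM was 37.1, 33.3 and 40 in DKK1-SE+/+ cells and 37.8, 31.7 and 31.1 in DKK1-SE-/- cells, and these overlapped. *SDC4* accounted for 55.3% ± 2.47 (SD, n = 3) of the summed TPM of the 10 genes in DKK1-SE+/+ cells and for 62.5% ± 2.36 in DKK1-SE-/- cells. *GPC6* made up 7.29% ± 2.74 of the glypican sum in DKK1-SE+/+ cells and 1.85% ± 0.953 in DKK1-SE-/- cells.

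**Figure D2:**
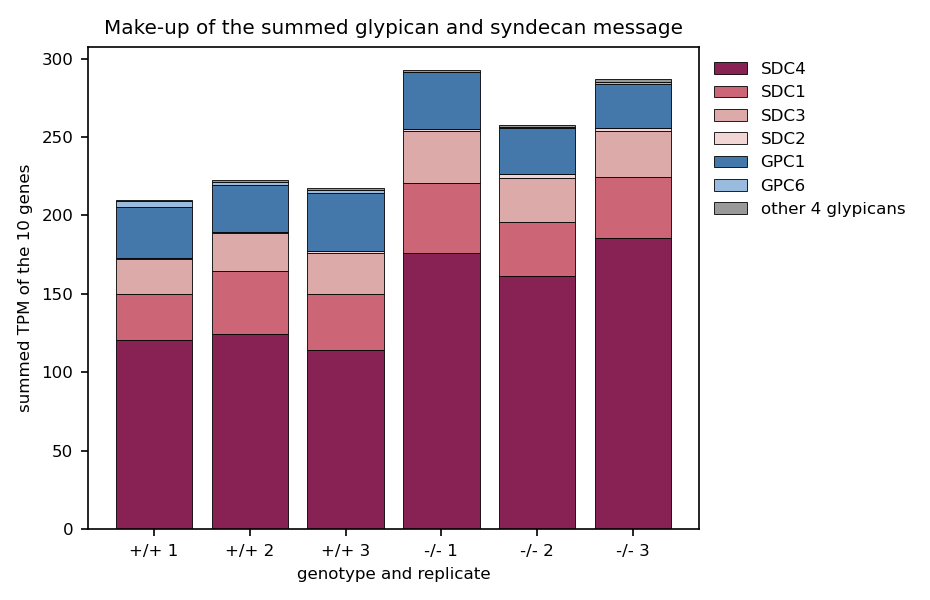
Summed TPM of the 10 genes (vertical axis) in each sample (horizontal axis), split by gene. The total is 209.8 to 222.8 in DKK1-SE+/+ samples and 257.7 to 292.7 in DKK1-SE-/- samples, and *SDC4* is the largest block in each.

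Markers of cell types also moved with genotype. Calls among them stand beside 19.8% of all tested genes called higher and 19.5% called lower. Epithelial markers were 6 of 6 tested, with *KRT19*, *KRT8* and *KRT18* called higher. *EPCAM* was called lower, though not with the replicate number as a block, by DESeq2 or by limma on log2(TPM + 1). *KRT7* (log2 fold change 0.47) and *CDH1* (-0.43) were not called. The summed TPM of the 6 epithelial markers was 1846.8, 1888.0 and 1924.6 across DKK1-SE+/+ replicates 1 to 3, against 3146.6, 3090.1 and 2662.0 across DKK1-SE-/- replicates 1 to 3. *KRT8*, the most abundant, and *KRT18* made up most of it. Of 6 fibroblast markers only *COL1A1* was tested, and it fell from 98.7 ± 6.72 to 12.3 ± 3.61 TPM (SD, n = 3 per group). It carried nearly all of the summed fibroblast marker TPM of 92.2, 102.8 and 103.9 in DKK1-SE+/+ cells and 12.4, 9.4 and 16.2 in DKK1-SE-/- cells. The defining fibroblast gene *COL1A2* had no reads in any sample, and *DCN* reached at most 0.72 TPM. Of 5 immune markers, *CD68* (the most abundant) and *CD14* were tested and called higher, and the summed TPM was 43.8, 41.1 and 47 in DKK1-SE+/+ cells and 69.1, 66.5 and 68.6 in DKK1-SE-/- cells. The DKK1-SE+/+ samples of *CD14* (12, 4 and 9 counts) would not have passed the filter without the DKK1-SE-/- samples, so the size of its change is not exact. *PTPRC* and *CD3E* were at 0 in every DKK1-SE+/+ sample and at most 0.06 TPM in DKK1-SE-/- samples. None of the 4 endothelial or 5 acinar markers was tested, and their summed TPM was at most 0.25 and 0.49, led over all 6 samples by *VWF* and *CEL*. The part of the changes in keratins, *COL1A1*, *CD68* and *CD14* in the proteoglycan results was not tested.

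Counts for the enzymes that build the chains stand beside 19.8% of all tested genes called higher and 19.5% called lower. Where 2 means are given without a genotype, DKK1-SE+/+ comes first and DKK1-SE-/- second, each ± SD of 3 samples. Of the 7 genes for the linker that joins chain and core protein, 6 were tested, 2 were called higher and 2 lower, with a median log2 fold change of 0.06. After GC correction the median was -0.07 and 1 was called higher and 2 lower, when blocked on replicate number 1 and 1, and by limma on log2(TPM + 1) 1 and 0. *B3GAT3*, which adds the last sugar of the linker, rose from 22 ± 2.83 to 32.9 ± 2.64 TPM (SD, n = 3 per group, log2 fold change 0.74, and 0.40 after GC correction). *B4GALT7*, a galactosyltransferase and the most abundant gene of the list, had a log2 fold change of 0.43, and was not called after GC correction (0.21) or with the replicate number as a block. *PXYLP1*, a phosphatase acting on the linker xylose, and *XYLT2*, which starts the linker, were called lower (2.01-fold and 1.28-fold), although TPM of the groups overlapped for both. *XYLT2* had log2 fold changes of -0.35 and, after GC correction, -0.65, and was not called with the block.

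Among 4 tested of 5 polymerisation genes, 1 was called higher and 2 lower, with a median of -0.47. *EXT2*, a subunit of the chain polymerase, rose from 26.8 ± 1.59 to 37 ± 3.41 TPM (SD, n = 3 per group, log2 fold change 0.49). Its partner *EXT1*, the most abundant gene of the list, was at 59.3 ± 3.32 and 50.2 ± 6.62 TPM and was not called. *EXTL2* and *EXTL3*, related glycosyltransferases, fell with log2 fold changes of -0.85 (-0.54 after GC correction) and -0.70. For *EXTL2* TPM was 8.66 ± 0.727 in DKK1-SE+/+ cells and 4.35 ± 0.85 in DKK1-SE-/- cells.

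Of 16 genes for sulfation and epimerisation of the chain, 8 were tested, 1 was called higher and 1 lower, with a median log2 fold change of 0.08. After GC correction 1 was called higher and 3 lower, and by limma on log2(TPM + 1) 1 and 2. *NDST2*, an N-deacetylase and N-sulfotransferase, was at 22.1, 16.8 and 18.2 TPM across DKK1-SE+/+ replicates 1 to 3, against 35.6, 31.9 and 37.4 TPM across DKK1-SE-/- replicates 1 to 3. Each DKK1-SE-/- sample exceeded all DKK1-SE+/+ samples (log2 fold change 0.95). *NDST1*, of the same activity and the most abundant gene of the list, was at 95.2 ± 6.97 and 78 ± 6.04 TPM (SD, n = 3) and was not called, but was called lower with the correction for GC content (log2 fold change -0.46). *HS2ST1*, which sulfates uronic acid residues, fell from 19 ± 1.3 to 11.6 ± 3.51 TPM (log2 fold change -0.72, and -0.31 after GC correction). Of the 4 genes that edit or cut finished chains, 2 were tested and 1 was called in each direction, while limma on log2(TPM + 1) called 1 higher and 0 lower. *SULF2*, an extracellular sulfatase of heparan sulfate, had 8, 8 and 3 counts across DKK1-SE+/+ replicates 1 to 3, against 45, 49 and 31 across DKK1-SE-/- replicates 1 to 3. It was low in all samples but higher in each DKK1-SE-/- sample (log2 fold change 2.81, SE 0.424). *SULF2* passed the filter only through the DKK1-SE-/- samples, so this fold is not exact. *HPSE*, heparanase and the most abundant of the 4, was called lower (log2 fold change -0.67), with overlapping TPM of 4.97 ± 0.797 and 3.38 ± 1.1.

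Among enzymes that shed or process core proteins (proteases, convertases, the carboxylesterase *NOTUM* and the phospholipase *GPLD1*), 8 of 11 listed genes were tested, none was called higher and 5 were called lower, beside 19.8% and 19.5% of all tested genes, and the median log2 fold change was -0.80. At an unadjusted p under 0.05 edgeR had 0 higher and 6 lower, and DESeq2 and limma on log2(TPM + 1) called 0 higher, with 5 and 6 lower. *MMP14*, a membrane-bound matrix metalloproteinase, had 105, 91 and 103 counts across DKK1-SE+/+ replicates 1 to 3, against 9, 5 and 6 across DKK1-SE-/- replicates 1 to 3. It was low in all 3 DKK1-SE-/- samples, 13.5-fold lower (log2 fold change -3.76, SE 0.312, Benjamini-Hochberg adjusted p = 9.64e-06 in edgeR's quasi-likelihood F test). *MMP14* passed the filter only through the DKK1-SE+/+ samples, so this fold is not exact and the p restates the separation seen. *MMP2*, a secreted metalloproteinase that MMP14 activates, fell from 50.7 ± 4.51 to 21.8 ± 2.55 TPM (SD, n = 3 per group, log2 fold change -1.01). *ADAM10*, a membrane sheddase and the most abundant gene of the list in DKK1-SE+/+ cells, fell from 74.5 ± 6.31 to 43 ± 12.9 TPM (log2 fold change -0.76, and -0.33 after GC correction). *PCSK6*, a proprotein convertase, had a log2 fold change of -0.84, and the log2 fold change of the convertase *FURIN* was -0.44 (-0.76 after GC correction). After GC correction 6 genes of this list were called lower and *ADAM17*, a sheddase, was called higher (0.63). *NOTUM* and *GPLD1* had log2 fold changes of -1.12 and 0.20 and were not called, and *NOTUM* was the gene added to those lower after GC correction (-1.55). With 16, 11 and 5 counts in DKK1-SE-/- cells, *NOTUM* also passed the filter only through the DKK1-SE+/+ samples.

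Of the cytoplasmic partners of syndecan tails 11 of 11 were tested, 3 were called higher and 5 lower, beside 19.8% and 19.5% of all tested genes, with a median log2 fold change of -0.06. Of these, 2 were called higher and 5 lower after GC correction (median -0.11), 3 and 4 with the block, and 2 and 3 by limma on log2(TPM + 1). *EZR*, which encodes ezrin and links membrane proteins to actin, fell from 428.0 ± 26.3 to 216.6 ± 17.2 TPM (SD, n = 3 per group, log2 fold change -0.84). *TIAM1*, an exchange factor for Rac, and *PDCD6IP*, an adaptor of exosome formation, had log2 fold changes of -0.65 and -0.63. For *PDCD6IP* it was -0.30 after GC correction, and its TPM overlapped between the groups, with 46.7 in DKK1-SE-/- replicate 3 and 45.5 in DKK1-SE+/+ replicate 1. The scaffold *CASK* and the small GTPase *RHOA* followed with -0.43 and -0.41, and *CASK*, whose TPM overlapped between the groups, was not called with the block. Among those called higher, the PDZ proteins *SDCBP* (syntenin) and *GIPC1* both had a log2 fold change of 0.56, and the small GTPase *RHOG* 0.57. The correction for GC content moved *SDCBP* to 0.92, *RHOG* to 0.29 and *GIPC1* to 0.17, where *GIPC1* was no longer called. *SDCBP* varied widely in DKK1-SE-/- cells, at 51.3, 62.9 and 89 TPM against 50.4, 53.2 and 47.4 TPM in DKK1-SE+/+ cells. *RAC1*, the partner with the highest mean TPM over all 6 samples though below *EZR* in DKK1-SE+/+ cells, was not called, at 381.2 ± 16.9 and 356.0 ± 33.8 TPM.

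**Figure D3:**
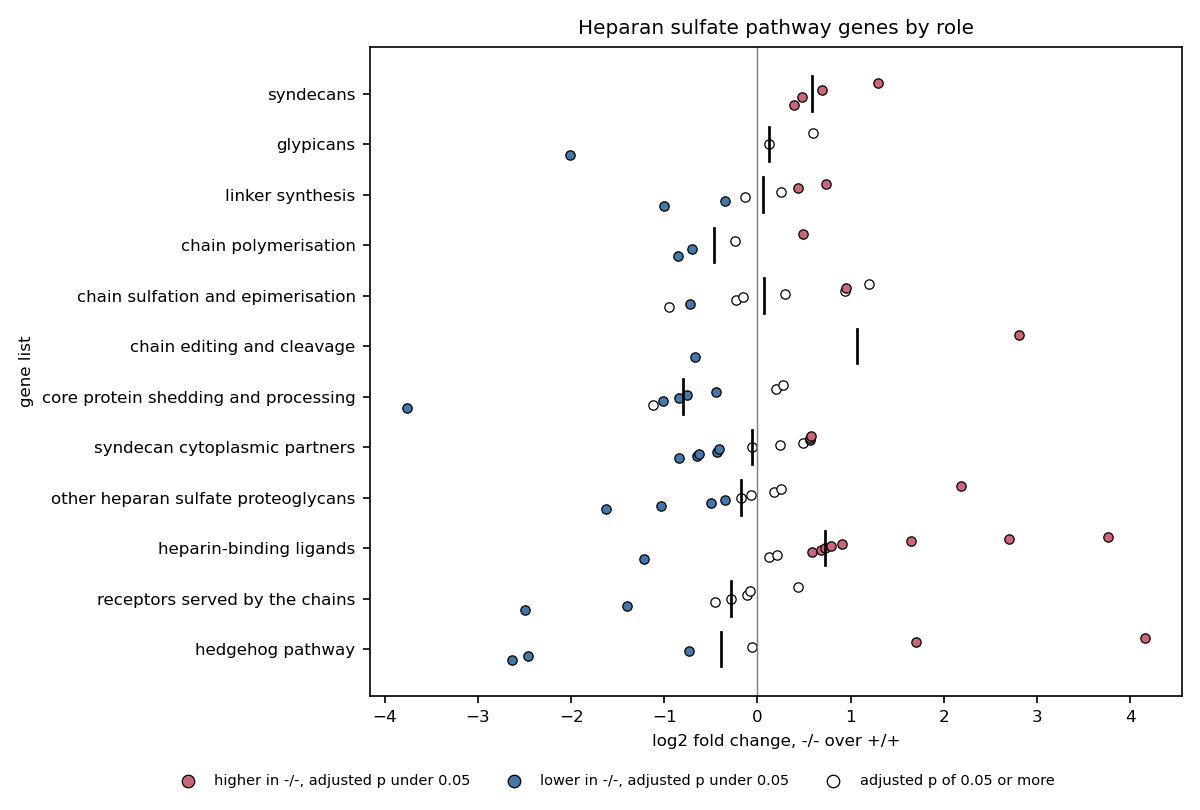
Log2 fold change of DKK1-SE-/- over DKK1-SE+/+ (horizontal axis) of each tested gene in the lists of the heparan sulfate pathway (vertical axis). Red and blue points were called higher and lower, white points were not called, and bars are list medians, from -0.80 for shedding and processing to 1.07 for the 2 tested chain editing genes. The latter rests on the inexact fold of *SULF2*. The called points of *SULF2*, *SMO*, *HGF*, *TGFBR3* and *MMP14* belong to genes that passed the filter only through the group where they were high.

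Among other carriers of heparan sulfate, 9 of 10 listed genes were tested, 1 was called higher and 4 lower, beside 19.8% and 19.5% of all tested genes, with a median log2 fold change of -0.18. These counts were 1 and 5 after GC correction (median -0.28), 1 and 3 with the block, and 0 and 3 by limma on log2(TPM + 1). *SPOCK1*, a secreted testican, was at 68.5, 73.7 and 80.8 TPM across DKK1-SE+/+ replicates 1 to 3, against 15.6, 22.9 and 27.5 TPM across DKK1-SE-/- replicates 1 to 3. The groups were far apart (log2 fold change -1.63, SE 0.127). *SRGN*, the intracellular proteoglycan serglycin, and *COL18A1*, a basement membrane collagen, had log2 fold changes of -1.03 and -0.50 (-0.61 and -0.91 after GC correction). The coreceptor *NRP1* had -0.35, with overlapping TPM, and was not called with the block. *TGFBR3*, the betaglycan coreceptor, was called higher (log2 fold change 2.18, SE 0.523) although TPM overlapped, at 0.407 ± 0.422 and 1.14 ± 1.11 (SD, n = 3). The DKK1-SE+/+ samples of *TGFBR3* (21, 5 and 6 counts) would not have passed the filter without the DKK1-SE-/- samples, so this fold is not exact. *CD44*, the most abundant carrier, was at 853.7 ± 13.6 and 769.6 ± 47.6 TPM and was not called.

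Of 19 listed ligands that bind the chains 11 were tested, 8 were called higher and 1 lower, beside 19.8% and 19.5% of all tested genes, with a median log2 fold change of 0.72. After GC correction 7 were called higher and 1 lower, and by limma on log2(TPM + 1) 4 and 1. *HGF*, the ligand of the receptor MET, was at 0.77, 0.18 and 0.43 TPM across DKK1-SE+/+ replicates 1 to 3, against 5.6, 5.12 and 5.61 TPM across DKK1-SE-/- replicates 1 to 3. It was barely detected in DKK1-SE+/+ cells and clearly present in each DKK1-SE-/- sample (log2 fold change 3.76, SE 0.241, Benjamini-Hochberg adjusted p = 1.74e-06 in edgeR's quasi-likelihood F test). The DKK1-SE+/+ samples of *HGF* (21, 8 and 13 counts) would not have passed the filter without the DKK1-SE-/- samples. This fold is therefore not exact, and the p restates the separation seen. *CXCL8*, the neutrophil chemokine, rose from 9.42 ± 1.84 to 26 ± 6.72 TPM (SD, n = 3 per group, log2 fold change 1.65). For *FN1*, fibronectin, counts were 31, 17 and 15 in DKK1-SE+/+ cells and 103, 137 and 136 in DKK1-SE-/- cells (log2 fold change 2.70), while TPM overlapped at 1.58 ± 0.457 and 2.38 ± 1.23. *FGF2*, a growth factor that needs heparan sulfate to signal, was the ligand called lower, from 9.73 ± 0.494 to 4.51 ± 1.47 TPM (log2 fold change -1.22, and -0.79 after GC correction). *PDGFB*, the most abundant ligand, was at 79 ± 6.67 and 79 ± 4.2 TPM and was not called.

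Of the 7 receptors served by the chains, all were tested, none was called higher and 2 were called lower, beside 19.8% and 19.5% of all tested genes, with a median log2 fold change of -0.28. At an unadjusted p under 0.05 edgeR had 0 higher and 2 lower, and DESeq2 and limma on log2(TPM + 1) also called 0 higher. After GC correction 3 were called lower. *FGFR1*, a receptor of FGF2, was at 124.3, 132.5 and 126.0 TPM across DKK1-SE+/+ replicates 1 to 3, against 46.3, 48.4 and 43.6 TPM across DKK1-SE-/- replicates 1 to 3. The samples of each group lay close together and the groups far apart (log2 fold change -1.40, SE 0.0989). *KDR*, a receptor of VEGFA, fell from 2.35 ± 0.238 to 0.423 ± 0.114 TPM (SD, n = 3 per group, log2 fold change -2.49). *EGFR*, the receptor with the highest mean TPM over all 6 samples though below *FGFR1* in DKK1-SE+/+ cells, was at 104.4 ± 2.46 and 91.7 ± 19.9 TPM and was not called. In the hedgehog pathway, whose ligands bind glypicans, 6 of 10 genes were tested, 2 were called higher and 3 lower, beside 19.8% and 19.5% of all tested genes, with a median of -0.40 (-0.66 after GC correction, with the same counts). The ligand *SHH* fell from 3.17 ± 0.418 to 0.56 ± 0.195 TPM, and the transcription factors *GLI3* and *GLI2* had log2 fold changes of -2.46 and -0.73, *GLI2* being the most abundant gene of the list. *PTCH1*, the hedgehog receptor, rose from 1.08 ± 0.0808 to 2.46 ± 0.532 TPM (log2 fold change 1.70). *SMO*, the signal transducer of the pathway, had 4, 0 and 3 counts in DKK1-SE+/+ cells and 50, 35 and 33 in DKK1-SE-/- cells (0.04 ± 0.0346 and 0.7 ± 0.204 TPM). It passed the filter only through the DKK1-SE-/- samples, so no fold is given. Its call is among the 2 counted as higher but is not read as a result.

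Neighbouring genes were examined for each tested member, taking the nearest tested protein-coding gene on either side. Of the 14 neighbours, 5 were called, beside 39.3% of all tested genes. *SYS1*, 13.5 kb from *SDC4*, was higher (log2 fold change 0.58), and *STK4* on the other side was not called. *PTDSS1*, next to *SDC2*, was higher (0.58), and *CPQ* was not called. *ANKMY1*, 11.3 kb from *GPC1*, and *PHF6*, next to *GPC4*, were lower (both -0.68), and their opposite neighbours *COPS9* and *HS6ST2* were not called. Next to *GPC6*, *TGDS* at 166.0 kb had a log2 fold change of -0.55 and was not called, and the distant *SLITRK5* was called higher (log2 fold change 3.30) at a mean of 0.0167 TPM in DKK1-SE+/+ cells and 0.277 TPM in DKK1-SE-/- cells. *SLITRK5* was thus nearly absent from DKK1-SE+/+ cells, and its fold is not exact. *LAPTM4A* and *PUM2*, the neighbours of *SDC1*, and *LAPTM5*, next to *SDC3*, were not called.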

How the data were processed

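RNA of PANC-1 cells was made into stranded mRNA libraries, 3 per genotype, grouped by the genotype in the sample labels. The authors deposited an expected count per gene and sample, which is not normalized, and TPM, which they scaled to gene length and library. The build is hg38 per the submitters' processing notes, and the aligner, counter and strand setting are not given in the sources used here. The authors' comparison columns (fold change, log2 fold change, p-value and adjusted p-value, named for DESeq2) were not used. Of 62703 identifiers, 62625 were placed in GENCODE version 44, and 32.3% of nonzero counts were not whole.

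Expected counts were rounded and tested with edgeR 4.0.16 in R 4.3.3 (filterByExpr with a minimum count of 10, TMM, quasi-likelihood F test, no covariate), with Benjamini-Hochberg adjustment over 15179 genes. The SE was the absolute log2 fold change divided by the square root of F. Tables and exact tests used Python 3.11.15 and scipy 1.17.1. Replicate pairs differed by more than sampling noise (chi-square per degree of freedom 4.09 to 30.9), so none was counted as a duplicate. The test was checked on simulated counts.

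Alternatives were DESeq2 1.42.0, RLE size factors, library size alone, no filter beyond a total count of 1, a mean TPM of at least 1, the replicate number as a block, a GC-content offset in 40 bins with and without the block, limma-trend (limma 3.58.1) of log2(TPM + 1) or log2(TPM + 0.1), each sample left out, and the stricter limit. Named genes were the 10 members, *DKK1*, up to 3 called genes per list and direction with the largest absolute log2 fold change at a mean TPM of at least 1 in a group, the most abundant gene of each list (mean TPM over all samples), the neighbours, the overlapping genes and the cell type markers. *FURIN*, *ADAM17*, *NOTUM*, *GPLD1*, *CASK*, *RHOA*, *NRP1* and *SMO* were named after their values were seen. A few genes falling under this rule are not reported here. The members and lists were chosen with earlier results of these data known. Overlapping genes other than *GPC1-AS1* did not pass the filter.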

Additional observations from a re-analysis of the deposited data

How the results depend on the processing

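*DKK1*, *SDC4* and *GPC6* kept their direction and call in all 16 refits. The syndecans kept a positive log2 fold change in each refit, but not their calls. Of 4 syndecans, limma on log2(TPM + 1) or log2(TPM + 0.1) called 1, the stricter limit 1, and leaving out a sample 1 to 3. Those counts were 1 without DKK1-SE+/+ replicate 1, and 2 without DKK1-SE+/+ replicate 2, DKK1-SE+/+ replicate 3 or DKK1-SE-/- replicate 2. Of the glypicans, 2 in place of 1 were called with the GC-content offset with or without the block (*GPC1* added, lower). With no filter *GPC3* was added as higher, but it had no count in DKK1-SE+/+ cells and entered only through its DKK1-SE-/- counts. That call is not read as a result about the glypicans. The stricter limit called 1314 genes in place of 5972, and leaving out a sample gave 4095 (without DKK1-SE+/+ replicate 2) to 7558 (without DKK1-SE-/- replicate 3). The log2 fold change of *GPC1* turned to -0.07 with either limma fit and to -0.30 with the GC-content offset with or without the block. Leaving out a sample gave *GPC1* -0.07 to 0.25 and *DKK1* -1.53 to -1.42. *GPC4* had no value with a mean TPM of at least 1, which it did not reach. The causes were not tested.

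The limma fits moved the median log2 fold change of all genes by -0.11 (log2(TPM + 1)) and -0.14 (log2(TPM + 0.1)). Relative to that median *GPC1* was at 0.01 and 0.04. Of called genes 35.8% and 36.2% were higher in these fits, beside 50.5% in the reported fit.

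Same-numbered replicates did not deviate together (correlations of -0.12, -0.07 and -0.11), and no sample correlated best with its own number, so the numbers are no evidence of pairing. Under the replicate block, 4981 genes, 3 syndecans and 1 glypican were called, and *DKK1* had a log2 fold change of -1.45.

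*GPC2*, *GPC3*, *GPC4*, *GPC5* and *SDC2* had at most 44 counts in any sample.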
